A study of Mus musculus with 12 samples.

Results

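The transcripts described here are those of 9 Polycomb genes of the mouse, chosen by symbol from a table of 24495 genes. They are Ezh2, Ezh1, Suz12, Jarid2 and Mtf2 of Polycomb repressive complex 2 (PRC2), and the chromobox genes Cbx7, Cbx6, Cbx2 and Cbx8 of Polycomb repressive complex 1 (PRC1). The rule used symbols and no measured value, though the members were chosen with earlier results of these data known. All 9 passed the filter on low counts that left 15532 genes. RNA-seq was made from CCE-Nanog-GFP mouse embryonic stem cells (mESCs), a line that carries a GFP reporter for Nanog. Every group carried a lentiviral shRNA, either the scrambled control shSC, whose genotype label is WT, or shCTSL, labelled CTSL KD, which targets the protease Cathepsin L. Each line was sampled as undifferentiated mESCs kept with LIF (Day 0) and as embryoid bodies grown without LIF and with all-trans retinoic acid (RA) for 2 or 4 days (Day 2, Day 4). Each of the 6 groups has 2 biological replicates. Cells were selected with puromycin and sorted for GFP before the experiments, and 1 shCTSL line was sequenced, so the shRNA and the line cannot be told apart.

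Polycomb complexes keep developmental genes silent. PRC2 methylates lysine 27 of histone H3 through Ezh2 or its paralog Ezh1, which act with the core subunits Suz12 and Eed, while accessory subunits such as Mtf2 and Jarid2 bring the complex to CpG-rich DNA and tune its activity. Canonical PRC1 binds the methylated histone through the chromodomain of a Cbx protein and compacts chromatin, and its Ring1 or Rnf2 subunit attaches ubiquitin to histone H2A. In mESCs Cbx7 is known as the main Cbx protein of PRC1, and Cbx2 and Cbx8 are known to take a larger part as cells differentiate.

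The libraries held 11171111 to 27155553 counted reads. Levels are normalized CPM, the reads of a gene scaled for the size and composition of its library, and a gene is called changed when its p-value from edgeR, adjusted over all 15532 genes, is under 0.05 and the change is at least 1.5-fold. The SD of the log2 ratio between the replicates of a group was 0.178 to 0.269 in 5 groups and 0.604 in shCTSL Day 2, which stands apart. Ctsl, the targeted gene, had 137 and 147 normalized CPM in shSC at Day 0 and 39.2 and 37.5 in shCTSL, a log2 difference of −1.89 (adjusted p = 0.00246). The differences were −1.06 at Day 2 (adjusted p = 0.0342) and −0.83 at Day 4, where adjusted p was 0.0896. Of 8 pluripotency genes 7 were called lower at Day 4 than at Day 0 in each line, with Nanog changing by −3.49 on the log2 scale in shSC, and 6 of 6 RA target genes were called higher in each line. Of 6 endoderm genes 6 rose in each line, their summed level going from between 11.7 and 15.5 at Day 0 to between 275 and 312 normalized CPM at Day 4, and of 6 mesoderm and endothelium genes 5 rose and 1 fell in each. Of 6 neural genes 4 rose and 1 fell in shSC, and 5 rose and 1 fell in shCTSL, while their summed level went from between 231 and 245 to between 150.2 and 171 normalized CPM in shSC and from between 214 and 221 to between 130.0 and 142 in shCTSL. Over all genes tested 32.1% were called higher and 28.7% lower at Day 4 in shSC, and 32.3% and 27.6% in shCTSL. In such mixed samples, fewer cells of a type and less RNA per cell cannot be told apart.

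The 4 Cbx genes lie in 2 pairs. Cbx2 (chromosome 11 of mm9, 118884276 to 118892584, plus strand) and Cbx8 (118897619 to 118902283, minus strand) are neighbours. Cbx6 (chromosome 15, 79654326 to 79665118) and Cbx7 (79746237 to 79801549), both on the minus strand, lie within 147224 bases. Ezh1 (101052429 to 101087777, minus strand) and Suz12 (79806608 to 79847625, plus strand) are also on chromosome 11. Ezh2 is on chromosome 6 (47480273 to 47545340, minus strand), Jarid2 on chromosome 13 (44824843 to 45017012, plus strand) and Mtf2 on chromosome 5 (108494693 to 108538023, plus strand). Exons of Ezh2, Suz12 and Mtf2 overlap exons of a gene on the other strand over 174, 178 and 395 bases, and since it is not given whether the counting kept the strand, those reads may be shared. An overlap of 1175 bases between Cbx6 and Npcd is on the same strand, and Npcd has 0 counts in every library. How reads in those bases were counted is not given, so this does not show that Cbx6 kept all of its reads.

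The promoters of a member that fell and one that rose, and of the 2 PRC2 genes with the largest difference between the lines at Day 2, are shown for comparison of their sequence. Each run gives the 250 bases before the start of the gene in RefSeq (GRCm38.p6, not the build of the counts), 5′ to 3′ on the gene's strand. Capitals mark a GC box (GGGCGG, bound by Sp factors), an E2F core (TTCCCGC) or the core motif of RA receptors (AGGTCA), each searched on both strands.
Cbx7, chr15:79932647-79932896, minus strand: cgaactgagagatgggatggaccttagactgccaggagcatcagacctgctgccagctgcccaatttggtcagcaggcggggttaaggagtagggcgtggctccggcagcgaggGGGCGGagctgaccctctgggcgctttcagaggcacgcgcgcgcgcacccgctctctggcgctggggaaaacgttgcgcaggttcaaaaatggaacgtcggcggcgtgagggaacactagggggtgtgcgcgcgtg
Cbx8, chr11:119040914-119041163, minus strand: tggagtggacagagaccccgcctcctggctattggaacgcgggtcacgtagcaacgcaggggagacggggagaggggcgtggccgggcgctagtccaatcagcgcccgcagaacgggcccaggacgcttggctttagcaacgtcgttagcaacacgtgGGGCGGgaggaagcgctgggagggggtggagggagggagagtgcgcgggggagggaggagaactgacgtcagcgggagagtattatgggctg
Suz12, chr11:79992856-79993105, plus strand: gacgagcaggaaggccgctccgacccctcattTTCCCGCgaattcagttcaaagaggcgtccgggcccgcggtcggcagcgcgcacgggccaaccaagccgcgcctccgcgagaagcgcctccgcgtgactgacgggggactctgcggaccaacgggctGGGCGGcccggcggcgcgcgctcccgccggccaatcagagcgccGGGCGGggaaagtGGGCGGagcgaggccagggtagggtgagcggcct
Jarid2, chr13:44730524-44730773, plus strand: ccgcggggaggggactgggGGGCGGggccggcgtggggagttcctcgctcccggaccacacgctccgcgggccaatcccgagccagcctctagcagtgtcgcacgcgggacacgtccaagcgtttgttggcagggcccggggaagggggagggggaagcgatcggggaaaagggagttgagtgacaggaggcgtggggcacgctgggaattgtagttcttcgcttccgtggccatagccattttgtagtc
RefSeq promoters were found for the 8 members other than Cbx2, 10 promoters in all, and the whole window searched ran from 250 bases before to 50 after the start. A GC box was found in the windows of Mtf2, Suz12, Cbx8, Jarid2, Cbx6 and Cbx7, against 35.7% of all 32851 promoters in the table. Of these 8 members, Suz12 alone held an E2F core, which starts 218 bases before its start site and is found in 4.6% of all promoters. Its match there does not overlap a GC box. The RA receptor motif, found in 16.3% of all promoters, was in none of the 10. The 4 promoters shown each hold a GC box in capitals, while the windows of Ezh2 and Ezh1 hold none. Cbx8 is the only gene that rose with a promoter here, so genes that rose and fell cannot be compared in this. Cbx7 and Cbx8 hold 33 and 24 CpG dinucleotides in the window where the median promoter holds 7.

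The catalytic subunits of PRC2 differed in their course. Ezh2 fell by Day 4 to 42.7% of its Day 0 mean in shSC and 40.6% in shCTSL, while Ezh1 was not called in any comparison. Ezh2, the main methyltransferase of dividing cells, had 295 and 312 normalized CPM in shSC at Day 0, 184 and 197 at Day 2 and 124 and 135 at Day 4. The shCTSL values were 315 and 333, then 224 and 171, then 126 and 136. On each later day every library lay below every library of the earlier day in the same line. As a log2 fold change from Day 0 to Day 4, shSC gave −1.23 (SE 0.13, adjusted p = 1.59e-05) and shCTSL gave −1.30 (SE 0.13, adjusted p = 1.11e-05). Most of the fall was present by Day 2, with 62.8% of the Day 0 mean left in shSC and 61.0% in shCTSL. Without shCTSL Day 2 replicate 2 the Day 2 change in shCTSL was −0.53 and under 1.5-fold. From Day 2 to Day 4 it went on falling, in shSC by under 1.5-fold (−0.56, adjusted p = 0.00927, called without shSC Day 2 replicate 1 or Day 4 replicate 2) and in shCTSL just past that cutoff (−0.59, adjusted p = 0.00759). Leaving out shCTSL Day 2 replicate 1 (−0.40) or Day 4 replicate 1 (−0.54) ended the second call, and over its 22 alternatives adjusted p ran from 1.77e-06 to 0.167.

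Ezh1, a weaker methyltransferase that is also found in cells that no longer divide, had 33.5 and 35.4 normalized CPM in shSC at Day 0, 41.7 and 40.3 at Day 2 and 40.1 and 39.7 at Day 4. Its shCTSL levels were 29.2 and 29.3, then 34.5 and 40.3, then 39.3 and 35.1. In both lines the Day 0 libraries were the lowest. Day 4 stood 0.21 above Day 0 on the log2 scale in shSC (SE 0.12, adjusted p = 0.128), a direction that turned to −0.047 with exonic length offsets. The shCTSL value of 0.35 (SE 0.12, adjusted p = 0.0223) was under 1.5-fold. Per kilobase of exon, Ezh2 stood at 10.6 ± 0.00840 times the level of Ezh1 in shSC at Day 0 (SD, n = 2), at 5.59 ± 0.409 times at Day 2 and at 3.90 ± 0.255 times at Day 4. In shCTSL the ratios were 13.3 ± 0.485, 6.45 ± 1.91 and 4.26 ± 0.562. Without the exonic length the ratios were 8.80, 4.65 and 3.25 in shSC and 11.1, 5.37 and 3.55 in shCTSL. The SDs do not cover this choice. Ezh2 transcripts therefore remained the more abundant on every day, and the share of Ezh1 in the sum of both was 8.64% at Day 0 and 20.4% at Day 4 in shSC, against 7.001% and 19.1% in shCTSL. With 2 libraries a group, no exact permutation test of such a ratio between 2 groups can reach 0.05, so the ratios are given as a description.

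The 12 genes of a list of DNA replication and mitosis genes moved the same way as Ezh2. From Day 0 to Day 4, 12 of them were called lower in shSC and 11 in shCTSL (median log2 fold changes −1.38 and −1.54), where 28.7% and 27.6% of all genes were, and their summed level went from between 6050 and 6161 to between 1954 and 2266 normalized CPM over both lines. Their part in the lower Ezh2 was not tested.

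Suz12, the scaffold on which PRC2 assembles, fell mainly in the first 2 days. In shSC it had 419 and 419.9 normalized CPM at Day 0, 248 and 267 at Day 2 and 239 and 220.0 at Day 4. The shCTSL libraries had 396 and 439, then 136 and 194, then 196 and 167. All Day 2 and Day 4 libraries lay below the Day 0 libraries, while Day 2 and Day 4 overlapped in shCTSL. Over the 4 days the log2 fold change of shSC was −0.87 (SE 0.16, adjusted p = 0.000684) and that of shCTSL −1.20 (SE 0.16, adjusted p = 7.84e-05). Between Day 2 and Day 4 Suz12 was not called in either line. Its value there in shCTSL, 0.14 (adjusted p = 0.544), became −0.12 without shCTSL Day 2 replicate 1.

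The accessory subunits fell as well. Jarid2 anchors one form of PRC2. It was the most highly counted of the 9 genes in every library but shCTSL Day 2 replicate 1, where Mtf2 had more reads. In shSC Jarid2 had 1105 and 1133 normalized CPM at Day 0, 559 and 554 at Day 2 and 404 and 375 at Day 4. The shCTSL values were 864 and 961 at Day 0, 275 and 501 at Day 2 and 323 and 302 at Day 4. The 2 Day 2 libraries of shCTSL were the farthest apart, on either side of the Day 4 libraries. With log2 fold changes from Day 0 to Day 4 of −1.52 for shSC (SE 0.22, adjusted p = 0.000133) and −1.54 for shCTSL (SE 0.22, adjusted p = 0.000126), Jarid2 had the largest fall of the 9 genes in each line. Day 4 was not called against Day 2, with −0.51 for shSC (adjusted p = 0.101) and −0.31 for shCTSL (adjusted p = 0.308). Without shCTSL Day 2 replicate 1 the latter was −0.70 and called (adjusted p = 2.89e-06), without replicate 2 it was 0.18, and adjusted p over its 22 alternatives ran up to 0.60.

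Mtf2, a Polycomb-like protein that anchors the other main form of PRC2, had 624 and 631 normalized CPM in shSC at Day 0, 375 and 391 at Day 2 and 314 and 292 at Day 4. Those of shCTSL were 580.0 and 623, then 297 and 259, then 257 and 256. Every library lay below those of the earlier days in its line. Between Day 0 and Day 4 the log2 fold changes were −1.05 for shSC (SE 0.10, adjusted p = 7.15e-06) and −1.23 for shCTSL (SE 0.10, adjusted p = 2.45e-06). Per kilobase of exon Mtf2 was the most abundant of the 9 genes in each of the 6 groups, though in shCTSL Day 2 its libraries overlapped those of Cbx7, the next in order.

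**Figure D1:**
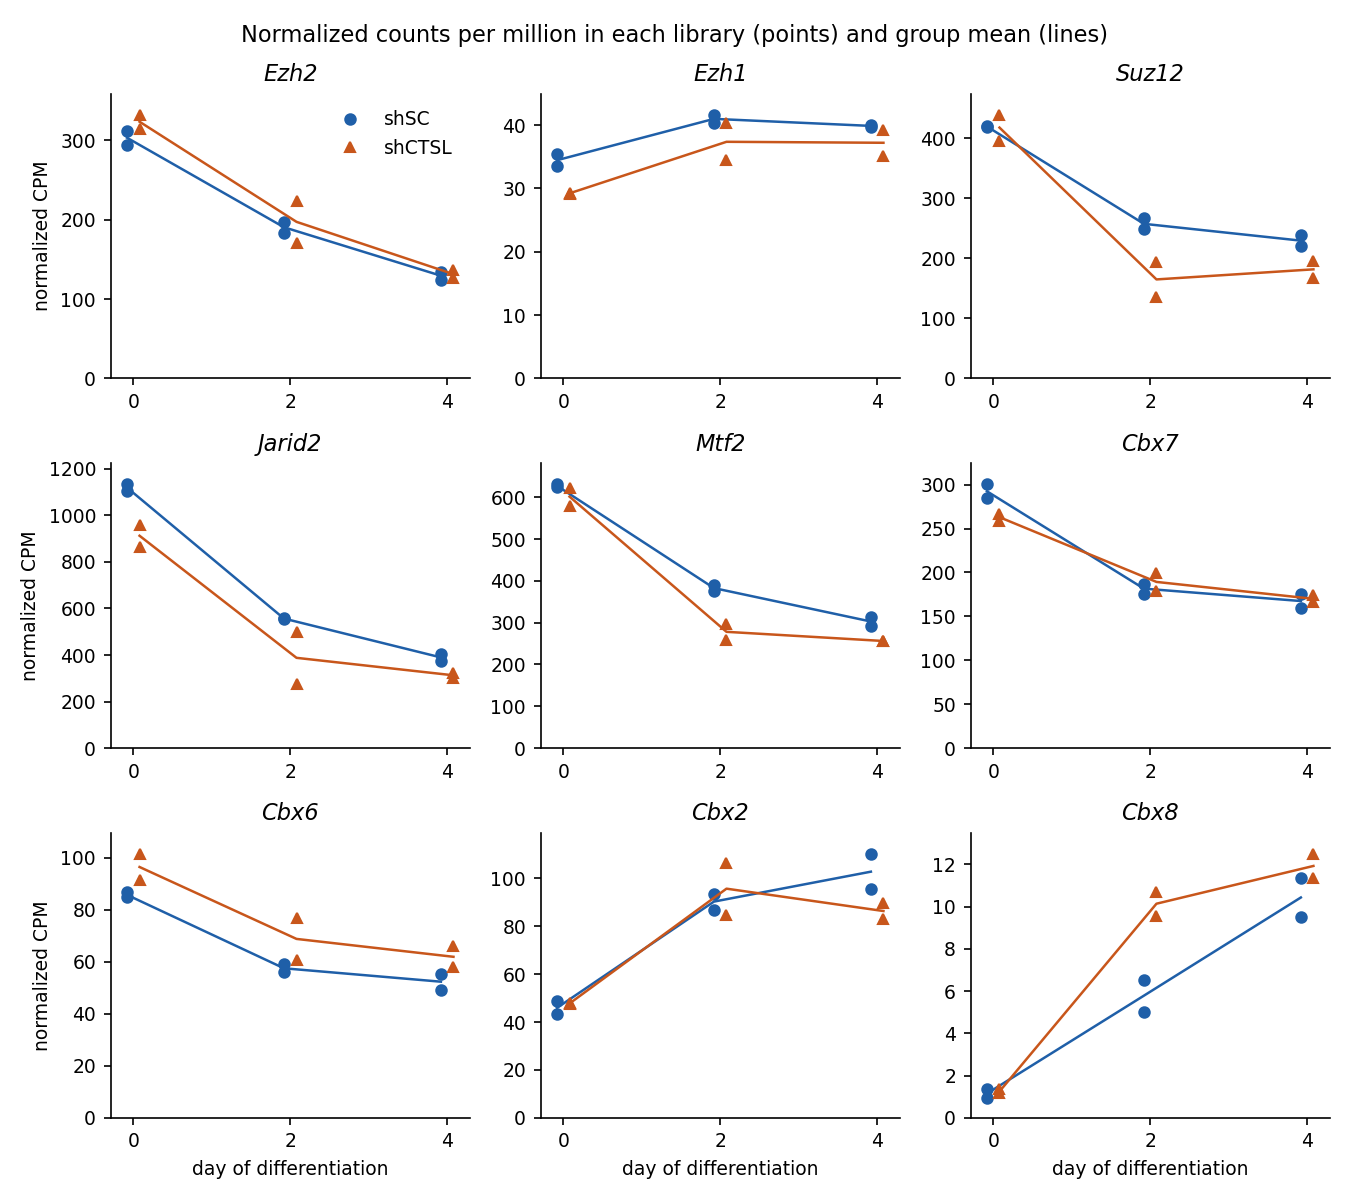
Normalized CPM of the 9 genes in each of the 12 libraries against the day of differentiation (shSC circles, shCTSL triangles, lines through the group means, each vertical axis from 0). The 6 genes Ezh2, Suz12, Jarid2, Mtf2, Cbx7 and Cbx6 are lower and Cbx2 and Cbx8 higher on Day 2 and Day 4 than on Day 0, and Ezh1 was not called in any comparison.

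The Cbx genes moved in opposite directions, Cbx7 and Cbx6 falling and Cbx2 and Cbx8 rising in both lines. Cbx7, the Cbx protein best known in mESC PRC1, had 284 and 300.3 normalized CPM in shSC at Day 0, 187 and 176 at Day 2 and 159 and 176 at Day 4. The shCTSL line had 267 and 259, then 179 and 199, then 174 and 166. The Day 0 libraries of each line lay above all later ones, and Day 2 and Day 4 differed by less than 1.5-fold in both lines. Day 4 retained 57.3% of the Day 0 mean with shSC and 64.6% with shCTSL. These are log2 fold changes of −0.80 (adjusted p = 5.27e-05, SE 0.10) and −0.63 (adjusted p = 0.000312, SE 0.10). At Day 2 the fall was called in shSC (−0.69, adjusted p = 0.000199), and in shCTSL it was under 1.5-fold (−0.47, adjusted p = 0.00217).

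Cbx6, a less studied paralog that is prominent in neural tissue, had 86.7 and 84.7 normalized CPM in shSC at Day 0, 59.1 and 55.9 at Day 2 and 49.2 and 55.4 at Day 4. In shCTSL there were 101 and 91.4, then 76.7 and 60.8, then 57.8 and 66.0. The Day 0 libraries were again the highest in each line. By Day 4 its log2 fold change reached −0.71 with shSC (SE 0.14, adjusted p = 0.000909) and −0.64 with shCTSL (SE 0.14, adjusted p = 0.00184). Leaving out shCTSL Day 0 replicate 1 (−0.56, adjusted p = 0.0199) or Day 4 replicate 1 (−0.55, adjusted p = 0.0228) brought the shCTSL change under 1.5-fold, and adjusted p over all 23 alternatives ran from 3.79e-06 to 0.0228. At Day 2 the fall was under 1.5-fold in both lines, −0.58 in shSC and −0.49 in shCTSL. It passed that cutoff at −0.61 without shSC Day 2 replicate 1 and at −0.63 without shCTSL Day 2 replicate 1.

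Cbx2, which compacts chromatin and is needed for normal body patterning and sex determination, had 43.2 and 48.6 normalized CPM in shSC at Day 0, 93.6 and 86.9 at Day 2 and 95.4 and 110.1 at Day 4. The shCTSL values were 47.4 and 48.0, then 84.8 and 106.5, then 89.6 and 83.0. All later libraries lay above the Day 0 libraries of their line, and from Day 2 to Day 4 it was not called in either line. At Day 4 its mean was 2.24 times that of Day 0 with shSC and 1.81 times with shCTSL. On the log2 scale the fit gave 1.16 (SE 0.14, adjusted p = 3.02e-05) and 0.85 (SE 0.14, adjusted p = 0.000283).

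Cbx8, a paralog that binds the methylated histone weakly and also DNA, rose from the lowest level of the 9 genes and by the largest factor. It had 1.37 and 0.929 normalized CPM in shSC at Day 0, 6.54 and 5.03 at Day 2 and 9.50 and 11.4 at Day 4. Its shCTSL levels were 1.34 and 1.16, then 10.7 and 9.58, then 11.4 and 12.5. The Day 0 libraries rest on only 11 to 18 counted reads each, against 164 to 254 at Day 4. The Day 4 mean was 9.07 times the Day 0 mean with shSC and 9.54 times with shCTSL, and the fitted log2 fold changes were 3.19 (adjusted p = 1.32e-06, SE 0.24) and 3.23 (adjusted p = 1.39e-06, SE 0.25). Cbx8 was the only member called in shSC between Day 2 and Day 4 (0.84, SE 0.19, adjusted p = 0.00743). Leaving out shSC Day 2 replicate 2 (0.67, adjusted p = 0.0811) or shSC Day 4 replicate 2 (0.71, adjusted p = 0.0560) ended that call, and over its 23 alternatives adjusted p ran from 0.000338 to 0.0811.

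So the 2 genes of the chromosome 11 pair rose and the 2 of the chromosome 15 pair fell. Of 5 other genes tested within 100 kb of Cbx6 and Cbx7, 2 were called higher and 2 lower in shSC, and 3 higher and 2 lower in shCTSL, where 60.7% and 59.9% of all genes were called. These neighbours were looked up after the values of the members were known.

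The 4 Cbx genes had very different levels at Day 0, which their fold changes do not show. Per kilobase of exon, Cbx7 made up 75.7% ± 0.274 (SD, n = 2) of the summed level of Cbx2, Cbx6, Cbx7 and Cbx8 in shSC at Day 0, 60.02% ± 0.256 at Day 2 and 55.6% ± 0.680 at Day 4. In shCTSL its share was 72.1% ± 0.348, then 58.0% ± 0.781, then 57.3% ± 0.846. Cbx7 remained the most abundant of the 4 in all 12 libraries. Cbx2 held 10.6% ± 0.505 at Day 0 and 30.4% ± 0.529 at Day 4 in shSC, against 11.7% ± 0.414 and 25.9% ± 0.917 in shCTSL. It passed Cbx6, which held 13.4% ± 0.684 and 10.5% ± 0.00380 in shSC and 15.9% ± 0.735 and 12.6% ± 1.41 in shCTSL. The share of Cbx8 was 0.309% ± 0.0944 at Day 0 and 3.57% ± 0.154 at Day 4 in shSC, and 0.353% ± 0.0273 and 4.15% ± 0.355 in shCTSL.

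In terms of ratios, Cbx7 stood at 7.17 ± 0.316 times Cbx2 per kilobase in shSC at Day 0 and at 1.83 ± 0.0544 times at Day 4, and in shCTSL at 6.19 ± 0.190 and 2.21 ± 0.0456 times. Against Cbx8 it stood at 257 ± 79.4 times in shSC at Day 0, a ratio that rests on few Cbx8 reads, and at 15.6 ± 0.864 times at Day 4. The summed level of the 4 genes was 102 ± 3.54 CPM per kilobase in shSC at Day 0 and 79.5 ± 6.67 at Day 4, and 96.2 ± 2.58 and 78.2 ± 1.46 in shCTSL. By transcript level these data therefore show a shift in the proportions of these 4 Cbx genes by Day 4 in which Cbx7 was still the leading one.

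**Figure D2:**
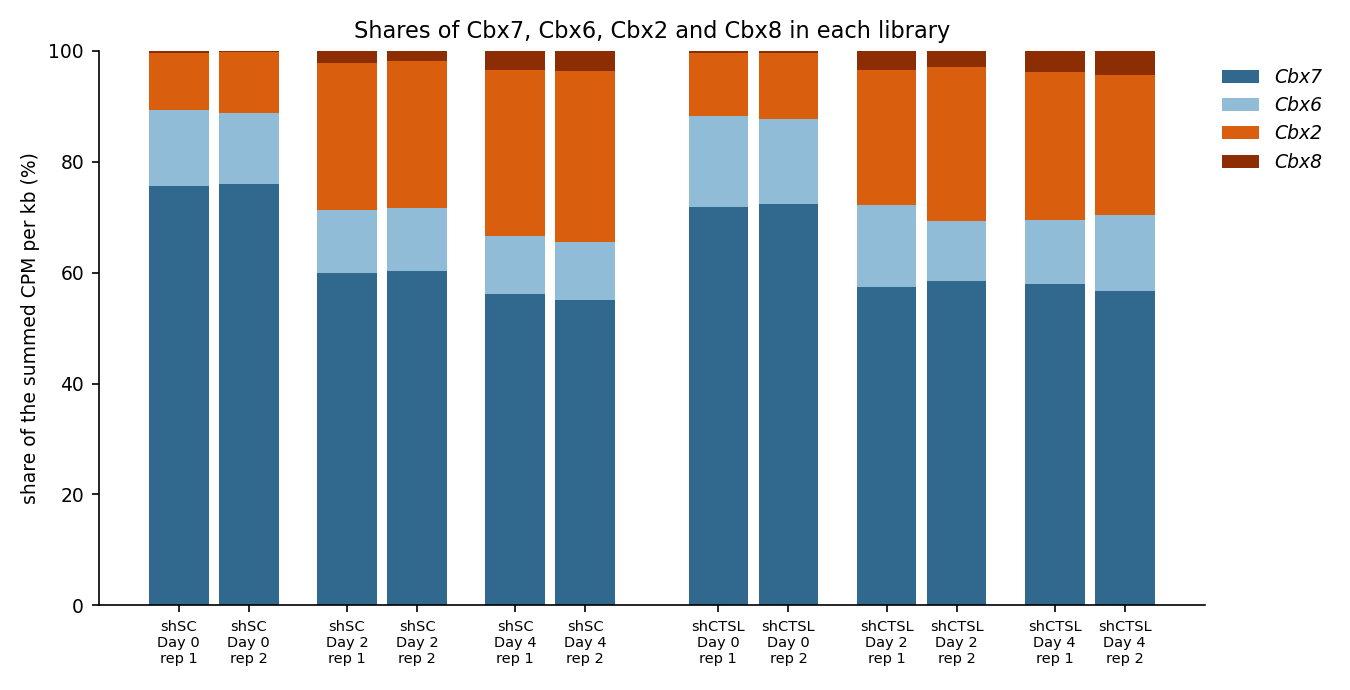
Share (%) of each of Cbx7, Cbx6, Cbx2 and Cbx8 in their summed CPM per kilobase of exon, 1 bar for each of the 12 libraries. Cbx7 is the largest block in every bar, at a mean of 75.7% at Day 0 and 55.6% at Day 4 in shSC, and 72.1% and 57.3% in shCTSL, while the blocks of Cbx2 and Cbx8 grow.

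Placed in order by CPM per kilobase of exon, the 9 genes in shSC at Day 0 ran from Mtf2 at 119 and Jarid2 at 115 through Suz12 (84.9), Cbx7 (77.1) and Ezh2 (49.0) to Cbx6 (13.6), Cbx2 (10.8), Ezh1 (4.63) and Cbx8 (0.313), and the libraries of neighbours in this order did not overlap. At Day 4 the order was Mtf2 (57.5), Suz12 (46.4), Cbx7 (44.2), Jarid2 (40.1), Cbx2 (24.1), Ezh2 (20.9), Cbx6 (8.32), Ezh1 (5.36) and Cbx8 (2.84), with overlap only between Suz12 and Cbx7. In this order Jarid2 thus went from the second to the fourth place, and Cbx2 stood above Ezh2 as well as Cbx6. The place of Jarid2 and that of Cbx2 against Ezh2 depend on the division by exonic length. Without it, Ezh2 had 124 and 135 normalized CPM in shSC at Day 4 against 95.4 and 110.1 for Cbx2. Jarid2 then had 404 and 375, above Mtf2 with 314 and 292. In shCTSL at Day 4 Ezh2 at 21.2 and Cbx2 at 20.3 overlapped, and at Day 2 the libraries of Mtf2, Cbx7, Jarid2 and Suz12 each overlapped those of the next in order, the last being Ezh2.

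Counted over the members, 7 of 9 were called between Day 0 and Day 2 in shSC, 2 higher and 5 lower, where 54.6% of all genes tested were called, 29.3% higher and 25.3% lower. In shCTSL 6 were called, 2 higher and 4 lower, against 55.5% of all genes, 30.9% higher and 24.6% lower. Between Day 2 and Day 4 there was 1 call in each line, Cbx8 in shSC, where 23.8% of all genes were called, and Ezh2 in shCTSL, where 23.4% were. Between Day 0 and Day 4, 8 of 9 were called in each line, of which 2 rose and 6 fell. Over all genes the shares were 60.7% in shSC, with 32.1% higher and 28.7% lower, and 59.9% in shCTSL, with 32.3% higher and 27.6% lower. Over the 9 genes the median log2 fold change was −0.80 with shSC and −0.64 with shCTSL, where all genes gave 0.029 and 0.061. With 60.7% and 59.9% of all genes called, 8 calls among 9 genes are no result about these genes alone.

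**Figure D3:**
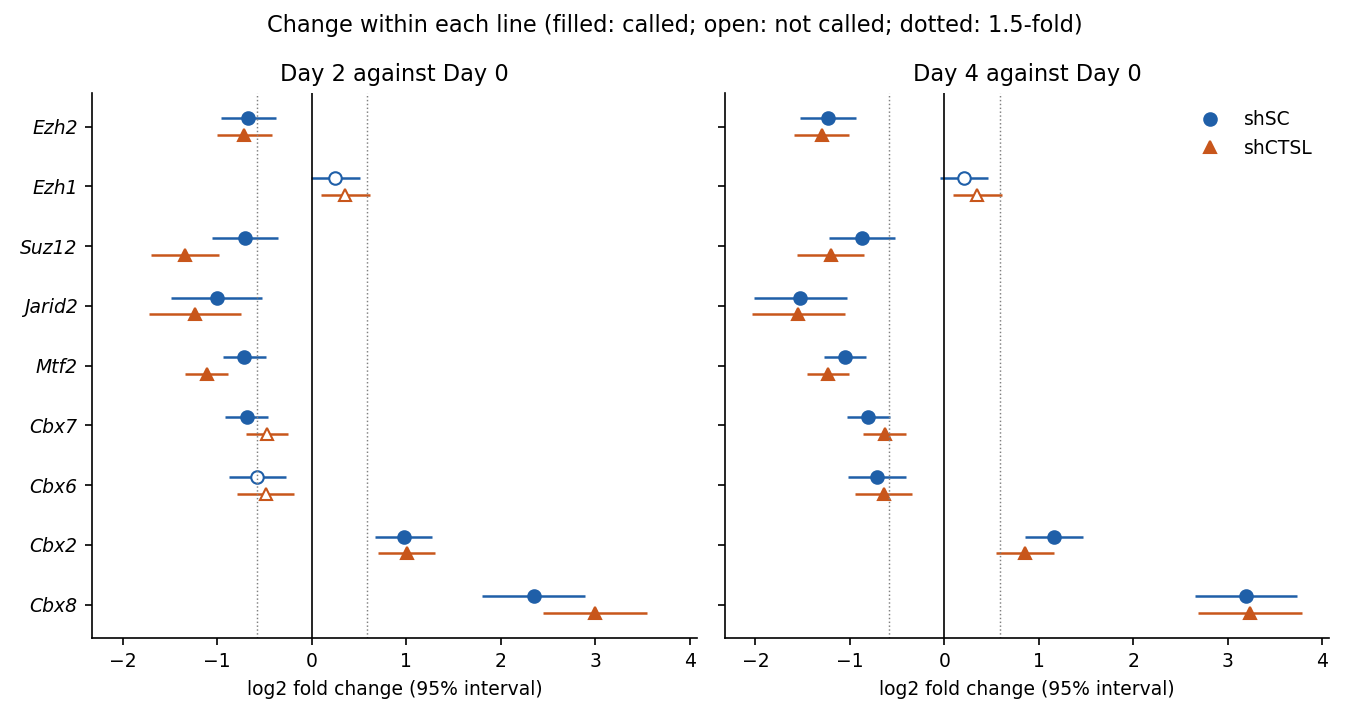
Log2 fold change from Day 0 to Day 2 (left) and to Day 4 (right) of the 9 genes in shSC (circles) and shCTSL (triangles), with 95% intervals from the fit. Filled points are called and open ones are not, and the dotted lines mark 1.5-fold. At Day 4 the 8 genes other than Ezh1 are called in both lines, from −1.54 for Jarid2 to 3.23 for Cbx8, and the sign of Ezh1 in shSC turns with exonic length offsets.

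The question of whether the knockdown of CTSL changed these genes was addressed by comparing the lines on each day. None of the 9 was called at Day 0, Day 2 or Day 4 by edgeR, where 0.0386%, 0.0644% and 0.0129% of all genes were called. By day, 0, 4 and 1 members had an unadjusted edgeR p under 0.05, as did 1127, 3014 and 1897 of all 15532 genes. DESeq2 called 0, 2 and 0 members, and limma-voom called 0 on each day. The shares of all genes that DESeq2 and limma-voom called are not given, here or for the comparisons of the lines below. Their counts are therefore no result about these genes alone. In the mean over the 3 days none was called either, against 0.27% of all genes, and 0 were called by DESeq2 or limma-voom. There 6 members had an unadjusted edgeR p under 0.05, as did 3510 of all 15532 genes. At Day 0 the differences ran from −0.295 for Jarid2 to 0.17 for Cbx6, with adjusted p from 0.728 to 1.

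For Suz12, Jarid2 and Mtf2 the 2 shCTSL libraries of Day 2 were lower than the 2 of shSC, and for Cbx8 they were higher. Suz12 had 136 and 194 normalized CPM in shCTSL and 248 and 267 in shSC, a log2 difference of −0.64 (SE 0.16, 95% interval −0.99 to −0.29, adjusted p = 0.212). The other differences were −0.52 for Jarid2 (interval −0.999 to −0.042, adjusted p = 0.241), −0.46 for Mtf2 (−0.68 to −0.24, adjusted p = 0.204) and 0.80 for Cbx8 (0.38 to 1.22, adjusted p = 0.208). These rest on the shCTSL Day 2 libraries that differ from each other, and the size depends on which is used, the remaining one being assumed to vary like the other groups. Without replicate 2 Suz12 stood at −0.93, Jarid2 at −1.02 and Cbx8 at 0.87 and all were called (adjusted p = 3.07e-06, 4.69e-07 and 0.00126). Without replicate 1 Suz12 stood at −0.40, Jarid2 at −0.14 and Cbx8 at 0.72 and none was called (adjusted p = 0.0576, 0.410 and 0.0743). Mtf2 stood at −0.37 and −0.55, under 1.5-fold in both cases. DESeq2 called Suz12 (−0.67, adjusted p = 0.0325) and Cbx8 (0.77, adjusted p = 0.0499), and over the 22 alternatives adjusted p reached 0.791 for each of the 4 genes, with limma-voom. In the same libraries the summed level of 6 mesoderm and endothelium genes was 72.7 and 124 normalized CPM in shCTSL against 192 and 199.9 in shSC, with all 6 listed genes counted in each group and a lowest adjusted p of 0.098 between the lines. Its part in the differences of Suz12, Jarid2, Mtf2 and Cbx8 was not tested.

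At Day 4 the same PRC2 genes were lower in both shCTSL libraries, with smaller log2 differences of −0.34 for Suz12 (SE 0.16, adjusted p = 0.426), −0.32 for Jarid2 (SE 0.21, adjusted p = 0.513) and −0.24 for Mtf2 (SE 0.10, adjusted p = 0.387). Cbx8 had 9.50 and 11.4 normalized CPM in shSC and 11.4 and 12.5 in shCTSL, and the libraries overlapped. With both shCTSL Day 2 libraries omitted, an alternative chosen after seeing the data, the Day 4 differences were −0.33 for Suz12 (adjusted p = 0.00906), −0.31 for Jarid2 (adjusted p = 0.00498) and −0.23 for Mtf2 (adjusted p = 0.0166). These remained under 1.5-fold and are not called. Over all their alternatives the highest adjusted p was 0.956. The 95% intervals at Day 4 ran from −0.80 for the lower bound of Jarid2 to 0.61 for the upper bound of Cbx8, so larger differences lie outside the intervals, while a 1.5-fold difference lay within the interval for Suz12, Jarid2 and Cbx8.

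Whether the change over time itself differed between the lines was tested as an interaction. For Day 4 against Day 0 none of the 9 was called, against 0.00644% of all genes, and 0 were called by DESeq2 or limma-voom. An unadjusted edgeR p under 0.05 was found for 0 members and for 1042 of all 15532 genes. The differences ran from −0.33 for Suz12 to 0.175 for Cbx7 (SE 0.22 and 0.14). For Day 2 against Day 0 none was called, against 0% of all genes, and 0 were called by DESeq2 or limma-voom. Here 2 members had an unadjusted edgeR p under 0.05, as did 1716 of all 15532 genes. Those 2 were Suz12 at −0.64 (SE 0.22, adjusted p = 0.389) and Mtf2 at −0.40 (SE 0.14, adjusted p = 0.389). Without shCTSL Day 2 replicate 2 the interactions of Suz12 and Jarid2 were called, at −0.91 and −0.72, and without replicate 1 they were −0.40 and 0.14 and were not called.

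**Figure D4:**
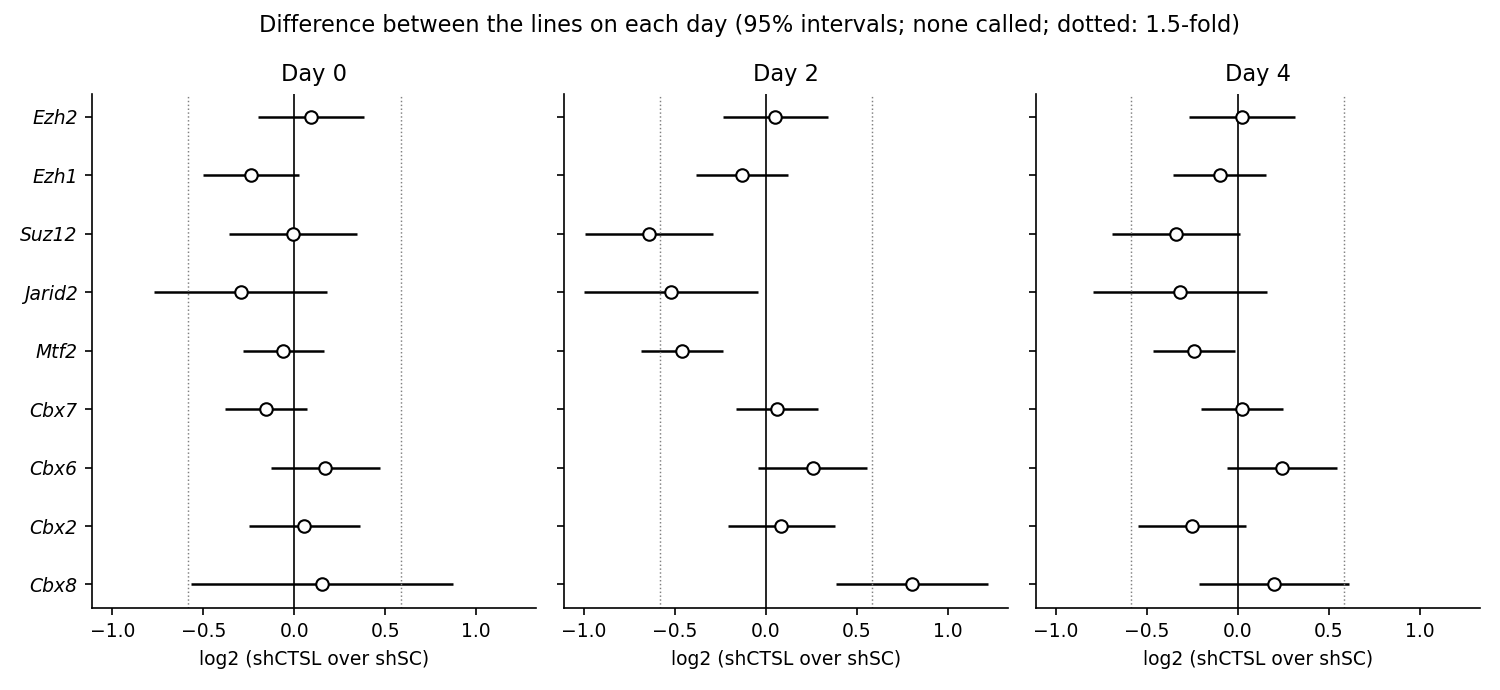
Log2 difference between shCTSL and shSC for the 9 genes at Day 0, Day 2 and Day 4, with 95% intervals from the fit (dotted lines at 1.5-fold, open points because none is called). At Day 2 Suz12, Jarid2 and Mtf2 lie at −0.64, −0.52 and −0.46 and Cbx8 at 0.80. The small differences of Ezh1 at Day 2 and Day 4 turn in sign with exonic length offsets.

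The rest of the Polycomb system was read from lists of other subunits. Of 9 other PRC2 genes, 2 rose and 3 fell from Day 0 to Day 4 in each line, with medians of −0.37 and −0.41 on the log2 scale. These counts are near the 60.7% and 59.9% of all genes called. Eed, the core subunit that binds the methylated histone, had 469 and 500.3 normalized CPM in shSC at Day 0 and 117 and 112 at Day 4, a log2 fold change of −2.08 (adjusted p = 1.45e-06, SE 0.16) against −2.04 in shCTSL. The values for Ezh2 and Suz12 lay between −0.87 and −1.30. Epop, an accessory subunit of the Mtf2 form, went from 690.0 and 698 to 89.3 and 80.0 in shSC (−3.03) and changed by −2.54 in shCTSL. Phf19, a paralog of Mtf2, changed by −2.28 and −2.75. Phf1, the third paralog, rose from 8.54 and 8.98 to 33.1 and 29.2 normalized CPM in shSC (1.83) and by 2.25 in shCTSL, so among the Polycomb-like genes Mtf2 and Phf19 fell where Phf1 rose. Ezhip (AU022751 in the table), which encodes an inhibitor of PRC2, rose by 1.44 and 2.46 from a low level of 6 to 21 counted reads in a Day 0 library.

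Among 22 other PRC1 genes, 9 rose and 5 fell from Day 0 to Day 4 with shSC, and 7 rose and 6 fell with shCTSL, with medians of 0.28 and 0.25, again near the 60.7% and 59.9% of all genes called. Rnf2, the main ubiquitin ligase of PRC1, had 228 and 222 normalized CPM in shSC at Day 0 and 252 and 214 at Day 4, and was not called in either line (0.05 and −0.23). Bmi1, a Pcgf subunit of canonical PRC1, rose from 13.5 and 13.9 to 97.5 and 91.7 normalized CPM in shSC (log2 fold change 2.79) and by 2.48 in shCTSL. Phc2 rose by 2.29 and 2.38, while Phc1, its paralog in the chromatin-clustering Polyhomeotic family, went from 647 and 650.3 to 130.5 and 129 in shSC (−2.32) and changed by −2.27 in shCTSL. Yaf2, which marks variant PRC1 together with its paralog Rybp, rose by 3.05 and 2.78.

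Of 6 enzymes and partners that oppose Polycomb, by demethylating lysine 27 of H3 or removing ubiquitin from H2A, 2 were called higher and 1 lower in shSC, and 2 higher and 3 lower in shCTSL, where 32.1% and 28.7% of all genes were called higher and lower in shSC and 32.3% and 27.6% in shCTSL. Kdm6b, a demethylase, rose from 83.0 and 82.7 to 237 and 222 normalized CPM in shSC (1.47) and by 1.40 in shCTSL. Asxl3 rose by 1.57 and 1.27 and Asxl1 fell by 0.74 and 0.81 on the log2 scale, both partners of the deubiquitinase Bap1. Between the lines the lowest adjusted p on any day was 0.222 among the other PRC2 genes, 0.222 among the other PRC1 genes and 0.265 among the opposing enzymes.

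**Figure D5:**
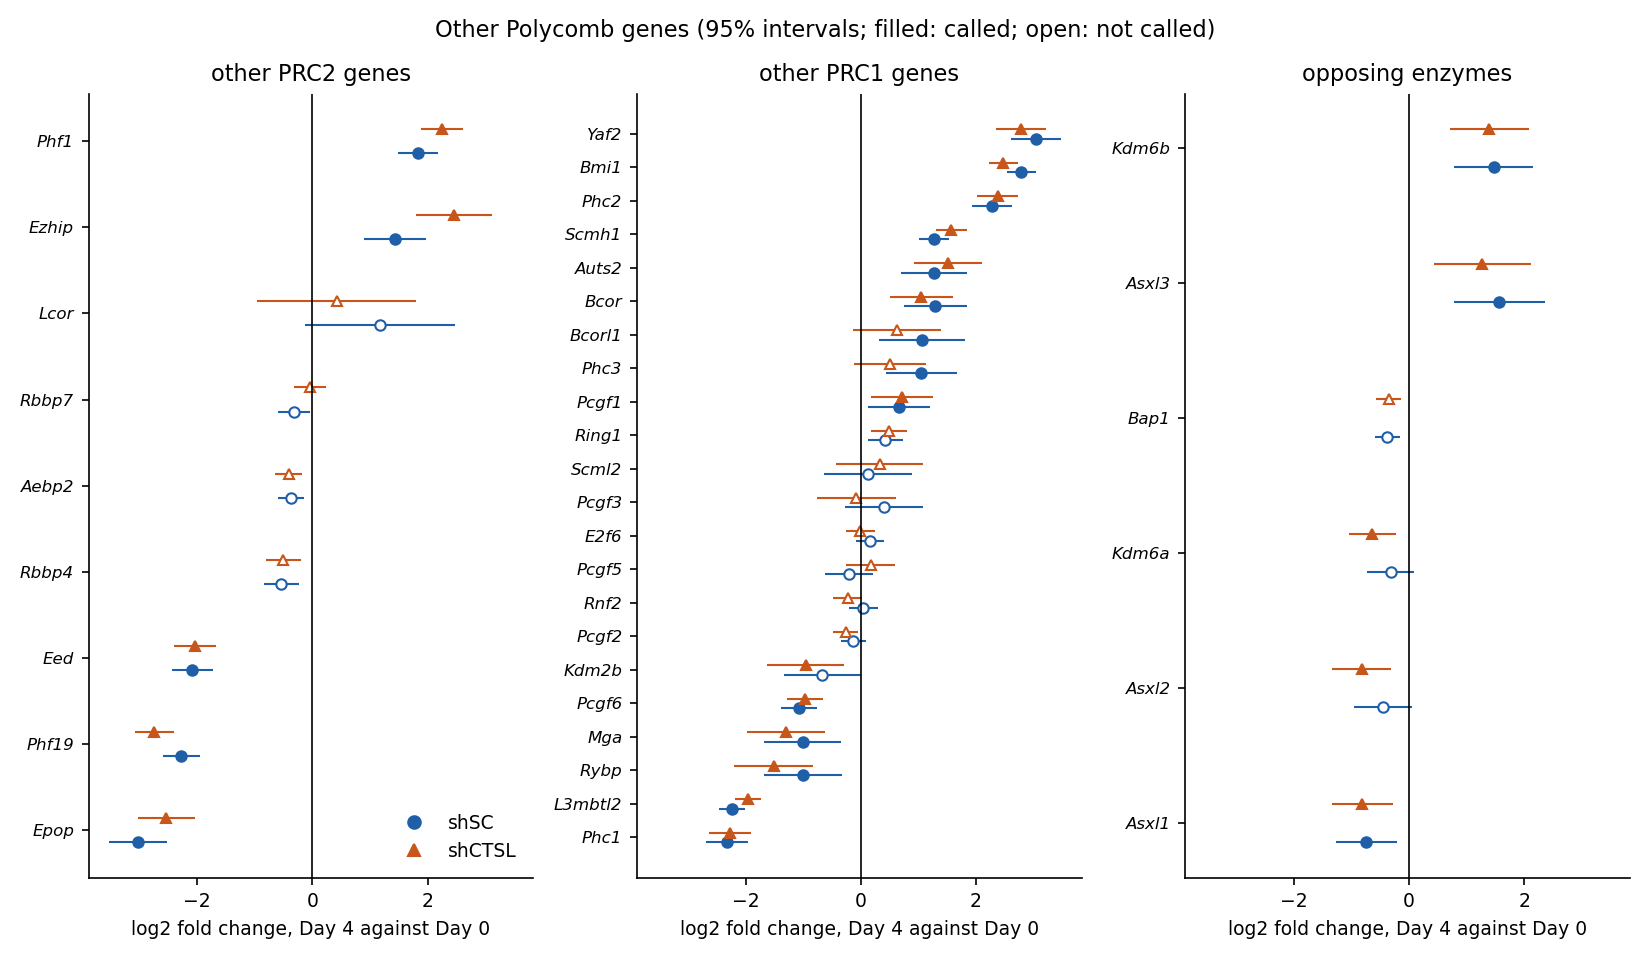
Log2 fold change from Day 0 to Day 4 of 9 other PRC2 genes, 22 other PRC1 genes and 6 opposing enzymes in shSC (circles) and shCTSL (triangles), with 95% intervals (filled points called, open points not). Changes run from −3.03 for Epop to 3.05 for Yaf2, both in shSC, and the 2 lines have called genes on both sides of 0 in each panel.

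To see which genes of the table followed the members most closely, the Pearson r of log2 CPM (0.5 added) was taken across the 12 libraries. The points fall into 3 days and share their libraries, and the values are a description. The closest to Ezh2 were Tyms, the thymidylate synthase needed for DNA synthesis (r = 0.998), and Ooep (0.997). Jarid2 was closest to Arhgap11a (0.996) and Kif14 (0.994), a mitotic kinesin. Suz12 followed Cand1 (0.998) and Far1 (0.995), and Mtf2 followed Rhot1 and Suv39h2, a histone H3 lysine 9 methyltransferase (0.989 each). Cbx7 followed Ywhag (0.989), and Cbx6 was closest to Lage3 (0.993) and Snapc5 (0.983). Of the genes that rose, Cbx2 was closest to Ift122 (0.991) and Gatsl2 (0.987), and Cbx8 to Id3, an inhibitor of differentiation that responds to BMP signals, and Nucb1 (0.992 each). Ezh1 had the loosest match, with Ralgps1 (0.961) and Snx30 (0.959).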

How the data were processed

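RNA-seq counts of 12 libraries were used, which the authors prepared from poly(A) RNA with a kit that keeps the strand. Per the submitters' processing notes and the study's methods, reads were aligned to mm9 with STAR 2.3.0e, filtered with SAMtools 0.1.19 and counted per RefSeq gene with featureCounts 1.6.2. The deposited values are raw counts of reads, not normalized. No strand setting is stated for the counting (not given in the sources used here). Replicates are biological by the study's account. With 2 a group, each SD is imprecise.

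The counts entered edgeR 4.0.16 (R 4.3.3) after filterByExpr with a minimum count of 10, which left 15532 of 24495 genes. One quasi-likelihood fit of all 12 libraries used TMM normalization and 1 mean for each group (6 residual degrees of freedom), and p-values were adjusted by the Benjamini-Hochberg method over all genes tested. Levels are CPM scaled by TMM, divided by exonic length from GENCODE M1 (mm9) where genes are compared. Fold changes of means are ratios of these CPM or, on the log2 scale, values of the fit. The fit was checked on simulated data.

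The members and the gene lists were chosen with earlier results of these data known. Besides the members, the text names Eed and Rnf2, and from the lists of other PRC2 genes, other PRC1 genes and opposing enzymes up to 5 each that were called in the same direction from Day 0 to Day 4 in both lines, by the mean size of the change. For each member it also names the 2 genes with the highest correlation, without predicted loci. Some items that these rules name are not reported here, and they are left out of the sums and list counts. The alternatives were RLE normalization, DESeq2 1.42.0, limma-voom (limma 3.58.1) with quality weights, other filters and fold cutoffs, only the libraries compared, a replicate block, exonic length offsets and each library left out. Figures were drawn in Python with matplotlib. Promoter sequences are from RefSeq (GRCm38.p6).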

Additional observations from a re-analysis of the deposited data

How the results depend on the processing

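Of the 8 genes called from Day 0 to Day 4 in shSC, 8 remained called with each library left out. The other counts with 1 library left out ran from 7 to 8 and from 0 to 2 for Day 2 against Day 0 and Day 4 against Day 2 in shSC, and from 5 to 7, 0 to 1 and 7 to 8 for Day 2 against Day 0, Day 4 against Day 2 and Day 4 against Day 0 in shCTSL. Between the lines they ran from 0 to 3 at Day 2 and from 0 to 2 for the Day 2 against Day 0 interaction, the highest in both without shCTSL Day 2 replicate 2, and stayed at 0 in the other comparisons of the lines. With single libraries left out the Day 2 interaction of Jarid2 ran from −0.72 to 0.14. The shares of all genes called in these fits and in the settings below are not given here. The counts therefore show only how the calls depend on the processing and are no result about these genes alone. For the other PRC2 genes they were 5 to 6 with shSC and 5 throughout with shCTSL, and for the other PRC1 genes 11 to 15 and 11 to 14.

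A cutoff of 1.5 on the log2 scale, in place of 1.5-fold, left 1, 0 and 2 members in shSC and 1, 0 and 2 in shCTSL for Day 2 against Day 0, Day 4 against Day 2 and Day 4 against Day 0, and 5 and 8 other PRC1 genes. The 2 members left at Day 4 were Cbx8 and Jarid2. No fold cutoff gave 3 members for Day 4 against Day 2 in shSC and 8 other PRC2 genes in shSC, and exonic length offsets gave 3 of the former. The 1 call of Day 4 against Day 2 in shCTSL became 0 with RLE, with DESeq2, with at least 1 CPM in 2 libraries, with only the libraries compared and with limma-voom, and without shCTSL Day 4 replicate 1. Without shCTSL Day 2 replicate 1 the gene called there was Jarid2 in place of Ezh2. DESeq2 gave 2 members between the lines at Day 2.

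Without the exonic length, Cbx7 took 68.8%, 54.2% and 50.3% of the summed Cbx level in shSC and 64.4%, 51.98% and 51.5% in shCTSL at Day 0, Day 2 and Day 4, and remained the largest of the 4 shares. With exonic length offsets Ezh1 stood at −0.047 for Day 4 against Day 0 in shSC, and at 0.075 and 0.063 between the lines at Day 2 and Day 4. For Day 4 against Day 2 in shCTSL, Ezh1 stood at 0.018 with RLE and 0.015 with DESeq2, and with single libraries left out Ezh1 ran from −0.14 to 0.11, Suz12 from −0.12 to 0.42, Jarid2 from −0.70 to 0.18, Cbx2 from −0.33 to 0.023 and Cbx6 from −0.31 to 0.0037. The median of all genes for Day 4 against Day 0 in shCTSL was 0.20 with no filter on low counts and 0.23 with DESeq2, against 0.06.

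The replicate block called 7, 1 and 8 members in shSC and 6, 1 and 8 in shCTSL and changed no count. Same-numbered libraries did not deviate together, with correlations from −0.47 to 0.26 between groups, both of these extremes involving shCTSL Day 2. This cannot show whether same-numbered samples shared a culture or batch. Omitting both shCTSL Day 2 libraries, chosen after seeing the data, left 8 and 8 members for Day 4 against Day 0. Depth limits Cbx8 and Ezhip at Day 0.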

Other observations

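The other chromobox genes, Cbx1, Cbx3 and Cbx5, encode heterochromatin protein 1, which reads methylated lysine 9 of histone H3 and is no part of PRC1. In shSC and in shCTSL all 3 were called lower on Day 4 than on Day 0, where 28.7% and 27.6% of all genes tested were. Cbx5, the most highly counted, went from 844 and 812 to 539 and 502 normalized CPM in shSC (−0.67 on the log2 scale, SE 0.16), and changed by −0.86 in shCTSL. Cbx1 changed by −0.83 and −0.78 and Cbx3 by −0.67 and −0.91. Between the lines the lowest adjusted p of the 3 on any day was 0.240.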
